A study of Mus musculus with 44 samples.

Results

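The 10 CC chemokine genes Ccl2, Ccl3, Ccl4, Ccl5, Ccl6, Ccl7, Ccl8, Ccl9, Ccl11 and Ccl12 were followed in mouse skin, out of 43411 genes in the table. They were taken by name from a list of CC chemokine genes, after the Ensembl identifiers were matched to symbols. Skin RNA was sequenced from 44 mice in 5 groups of a bleomycin model of skin fibrosis, and the comparisons ask how the tissue changes during injury and after it stops. All mice were wild-type C57Bl/6 females aged 8 weeks, and all were injected under the back skin every day with 100 µL of fluid. The control group of 10 mice was given saline. Bleomycin at 1 U/mL, a DNA-damaging drug that causes local fibrosis, was given for 2 weeks to 10 mice and for 4 weeks to 10 mice. The recovery groups were given bleomycin for 4 weeks, as the paper states, and then left without it for 6 weeks (6 mice) or 10 weeks (8 mice). Treatment and recovery lasted different times, so age at harvest differed between the bleomycin and recovery groups and cannot be told apart from these times. How long saline was given, and when the saline mice were harvested, is not given in the sources used here. An age difference thus cannot be told apart from the differences from saline either. The 4 comparisons with saline use the same saline mice. Each biopsy held whole skin, so fewer cells of a type and less RNA per cell cannot be told apart, for any transcript below.

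CC chemokines are small secreted proteins with adjacent cysteines near the amino end. They bind to sugar chains of the matrix and vessel wall and draw in leukocytes that carry matching G protein-coupled receptors. Ccl2, Ccl7 and Ccl12 act on Ccr2, the receptor that brings monocytes out of the blood into injured tissue. Ccl3, Ccl4 and Ccl5 draw in macrophages, T cells and other leukocytes, Ccl3 and Ccl5 in part through Ccr1. Ccl6 and Ccl9 are rodent chemokines of myeloid cells that act through Ccr1. Mouse Ccl8 acts on Ccr8, and Ccl11, the chemokine known as eotaxin, acts on Ccr3 of eosinophils. In skin, macrophages, fibroblasts, endothelial cells and keratinocytes can all make members of this family.

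All 10 genes lie on mouse chromosome 11 (GRCm38, the build also called mm10), in 2 clusters of 5 genes that are 1.41 Mb apart. The first cluster spans 81.2 kb and runs in the order Ccl2 (chr11:82035571-82037453), Ccl7 (chr11:82045712-82047525), Ccl11 (chr11:82057823-82062955), Ccl12 (chr11:82101845-82103400) and Ccl8 (chr11:82115185-82116799), all on the plus strand. The second spans 138.9 kb and holds Ccl5 (chr11:83525778-83530518), Ccl9 (chr11:83572919-83578636), Ccl6 (chr11:83587882-83593087) and Ccl3 (chr11:83647844-83649355) on the minus strand and Ccl4 (chr11:83662584-83664683) on the plus strand. The span of Ccl2 overlaps Gm17268 and that of Ccl6 overlaps E230016K23Rik, each on the opposite strand. The strand setting of the counting is not given in the sources used here, so the counts of these 2 members may include reads of the overlapping genes.

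RefSeq promoter sequences (GRCm38.p6) were at hand for 5 of the 10 genes, and 4 of them are shown because these genes behaved differently. Ccl12 and Ccl3 were higher in every bleomycin-treated mouse than in any saline mouse, Ccl9 was higher on average with 1 saline mouse overlapping, and Ccl8 was called at 2 weeks only, on the strength of 1 mouse. Each line holds the 250 bases before the RefSeq transcription start on the strand of the gene (Ccl12 chr11:82101595-82101844 and Ccl8 chr11:82114935-82115184, plus strand, and Ccl9 chr11:83578637-83578886 and Ccl3 chr11:83649379-83649628, minus strand), and capitals mark every match to a searched motif. The Ccl3 window does not reach the gene end given above (chr11:83649355), so the bases in between were not searched.
Ccl12: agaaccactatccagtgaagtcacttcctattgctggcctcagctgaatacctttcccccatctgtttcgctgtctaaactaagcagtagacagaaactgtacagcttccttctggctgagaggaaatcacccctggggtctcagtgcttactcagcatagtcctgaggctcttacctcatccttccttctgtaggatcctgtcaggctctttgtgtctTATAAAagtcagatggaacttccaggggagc
Ccl8: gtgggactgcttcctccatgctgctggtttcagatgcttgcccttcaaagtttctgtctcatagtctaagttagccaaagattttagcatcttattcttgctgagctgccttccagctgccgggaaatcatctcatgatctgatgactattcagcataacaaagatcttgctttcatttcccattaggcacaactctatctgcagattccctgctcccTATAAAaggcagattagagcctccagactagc
Ccl9: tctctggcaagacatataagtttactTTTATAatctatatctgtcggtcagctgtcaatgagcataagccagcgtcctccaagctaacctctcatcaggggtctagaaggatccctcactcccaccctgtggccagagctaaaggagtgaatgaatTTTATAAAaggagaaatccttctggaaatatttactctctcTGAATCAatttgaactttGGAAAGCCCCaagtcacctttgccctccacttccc
Ccl3: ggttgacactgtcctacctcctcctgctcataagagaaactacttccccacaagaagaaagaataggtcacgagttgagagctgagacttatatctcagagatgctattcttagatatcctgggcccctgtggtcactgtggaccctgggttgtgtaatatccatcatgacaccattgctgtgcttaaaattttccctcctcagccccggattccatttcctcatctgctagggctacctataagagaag

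The search covered both strands and 7 motifs: NF-kB (GGG and TTTCC with any 2 bases between), AP-1 (TGANTCA), the interferon-stimulated response element (GAAA and GAAA with any 2 bases between), STAT6 (TTC and GAA with any 4 bases between), other STAT factors (TTCNNNGAA), C/EBP (TTGCGNAA) and the TATA box (TATAAA). Ccl12 and Ccl8 each held 1 match, a TATA box that begins 31 bases and 32 bases before the start. Among the 10 pairs of the 5 promoters these 2 neighbours were the most alike, at 55.6% identical bases in the alignment against 43.7% to 50.4% in the other 9 pairs. Ccl9 held an AP-1 match that begins 53 bases before the start, an NF-kB match on the opposite strand 35 bases before it, and 3 TATA matches, 2 of which overlap each other. The windows of Ccl3 and Ccl6 held none of the 7. Over 32817 mouse promoter windows of the same length, 1.41% held the NF-kB letters, 6.75% AP-1, 2.97% the interferon element, 5.85% STAT6, 7.01% the other STAT form, 0.67% C/EBP and 12.4% the TATA letters. A match describes the letters only.

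Each mouse had between 8509094 and 15285577 reads on genes (median 11310008), and the group medians ran from 9523976 in saline to 12905996 after 10 weeks of recovery. Keratinocyte and fibroblast genes were detected in every mouse, as skin should have. Mouse 2 given bleomycin for 2 weeks and saline mouse 1 had the lowest median correlation with their own group over all genes (0.938 and 0.942). Results that rest on these 2 mice are given with and without them. The cut after them is arbitrary, since mouse 4 after 10 weeks of recovery was close, at 0.947. That mouse and mouse 7 of its group correlated higher with other groups (0.958 and 0.959) than with their own (0.947 and 0.954), and both were kept. Values below are normalized counts, which are reads divided by one size factor per mouse. Differences are log2 fold changes of (normalized count + 1), which understate the change of a transcript near 0.

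Daily bleomycin left most of the 10 members well above saline, and their levels were back near saline in recovery. A transcript was called changed at a fold change above 1.5 with an adjusted p below 0.05 (limma, two-sided, Benjamini-Hochberg over 17037 genes). At 2 weeks 9 of the 10 members were higher and 0 lower, when 9.3% of all genes tested were called higher. At 4 weeks 8 were higher and 0 lower, against 10.5% of all genes. After 6 weeks of recovery 1 member was higher, against 3.33%, and after 10 weeks 0, against 2.05%. The 10-week count was 0 with limma, edgeR and DESeq2, and 3 members passed an unadjusted p of 0.05 in limma, 1 higher and 2 lower. The median log2 fold change over the 10 members was 2.10, 1.74, -0.08 and -0.06 in that order, and the medians over all genes tested ran from -0.0023 to 0.0025. The filter on low values left out no member.

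**Figure D1:**
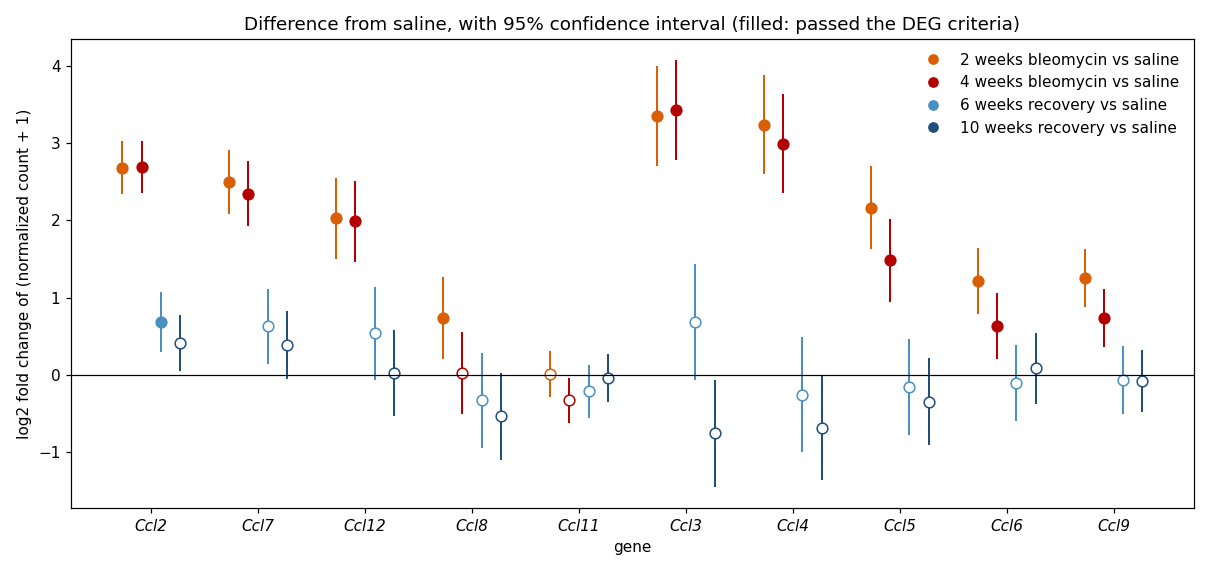
Log2 fold change of (normalized count + 1) from saline for each CC chemokine at the 4 times, with 95% confidence intervals from limma and filled points for called changes. The bleomycin points of Ccl2, Ccl3, Ccl4, Ccl5, Ccl7 and Ccl12 sit far above 0, those of Ccl6 and Ccl9 lower, and those of Ccl11 at or below 0, while 15 of the 20 recovery intervals include 0, the exceptions being Ccl2 at both times and Ccl7 at 6 weeks above 0, and Ccl3 and Ccl4 at 10 weeks below it.

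Ccl2, the main monocyte attractant and a Ccr2 ligand, rose to the same level at both bleomycin times. In saline mice its normalized count ran from 45.1 to 161.0 with a median of 106.0. It ran from 465.95 to 1223 (median 559.8) at 2 weeks and from 483.6 to 820.5 (median 574.0) at 4 weeks, so that no treated mouse overlapped a saline mouse. Log2 fold changes were 2.68 ± 0.17 (SE) at 2 weeks and 2.69 ± 0.17 at 4 weeks, with adjusted p of 4.51e-17 and 4.74e-17 (limma). This is a rise of 6.43-fold and 6.46-fold.

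Ccl7, encoded next to Ccl2 and also a Ccr2 ligand, followed closely. Its normalized count was 35.8 to 145.0 (median 79.3) in saline, 300.5 to 1475 (median 406.3) at 2 weeks and 337.3 to 557.7 (median 403.2) at 4 weeks. Again the treated and saline mice did not overlap. Ccl7 had a log2 fold change of 2.50 ± 0.21 (SE) at 2 weeks and 2.35 ± 0.21 at 4 weeks (adjusted p 2.72e-13 and 1.98e-12, limma). Ccl12, a mouse Ccr2 ligand with no direct human counterpart, was the least abundant of the 3 per kilobase of transcript in every group. It ran from 13.1 to 64.0 (median 30.6) in saline, from 70.4 to 469.5 (median 96.0) at 2 weeks and from 77.7 to 163.9 (median 107.2) at 4 weeks. The lowest treated mouse lay just above the highest saline mouse. On the log2 scale Ccl12 rose by 2.03 ± 0.26 at 2 weeks and 1.99 ± 0.26 at 4 weeks (adjusted p 2.71e-08 and 4.25e-08, limma).

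Ccl3 and Ccl4, the macrophage inflammatory proteins, had the largest fold changes of the 10 members and the lowest levels per kilobase among them in saline. Ccl3 was near the limit of detection in saline, at 1 to 5 reads per mouse and a normalized count of 1.21 to 5.71 (median 2.92). It ran from 12.5 to 165.2 (median 41.97) at 2 weeks, behind which stood 13 to 127 reads per mouse, and from 25.6 to 56.3 (median 42.5) at 4 weeks. All treated mice lay above all saline mice, and the spread at 2 weeks was wider than at 4 weeks (SD 45.5 against 9.87). Ccl3 rose by 3.36 ± 0.32 (SE) on the log2 scale at 2 weeks and by 3.43 ± 0.32 at 4 weeks (adjusted p 1.63e-11 and 9.98e-12, limma). With so few reads in saline the size depends on the scale, and edgeR on the whole reads gave 4.00 and 3.70.

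Ccl4 showed the same arrangement. Its normalized count was 1.29 to 10.3 (median 5.27) in saline, 20.2 to 176.9 (median 50.8) at 2 weeks and 26.4 to 63.2 (median 41.3) at 4 weeks, with no overlap between treated and saline mice. Its log2 fold change was 3.24 ± 0.32 at 2 weeks and 2.99 ± 0.32 at 4 weeks (adjusted p 2.97e-11 and 2.63e-10, limma). Ccl5, which T cells, NK cells and macrophages secrete, rose less. It ran from 21.9 to 44.6 (median 34.0) in saline, from 84.1 to 440.9 (median 145.6) at 2 weeks and from 49.1 to 155.1 (median 107.2) at 4 weeks. The lowest mouse at 4 weeks was only just above the highest saline mouse. For Ccl5 the log2 fold change was 2.17 ± 0.27 at 2 weeks and 1.49 ± 0.27 at 4 weeks (adjusted p 9.54e-09 and 1.61e-05, limma).

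The 6 members whose treated and saline mice did not overlap were thus Ccl2, Ccl3, Ccl4, Ccl5, Ccl7 and Ccl12, and they were the same 6 at 2 weeks and at 4 weeks. Of all genes tested, 3.44% had all 2-week mice above all saline mice and 4.31% had all 4-week mice above them.

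**Figure D2:**
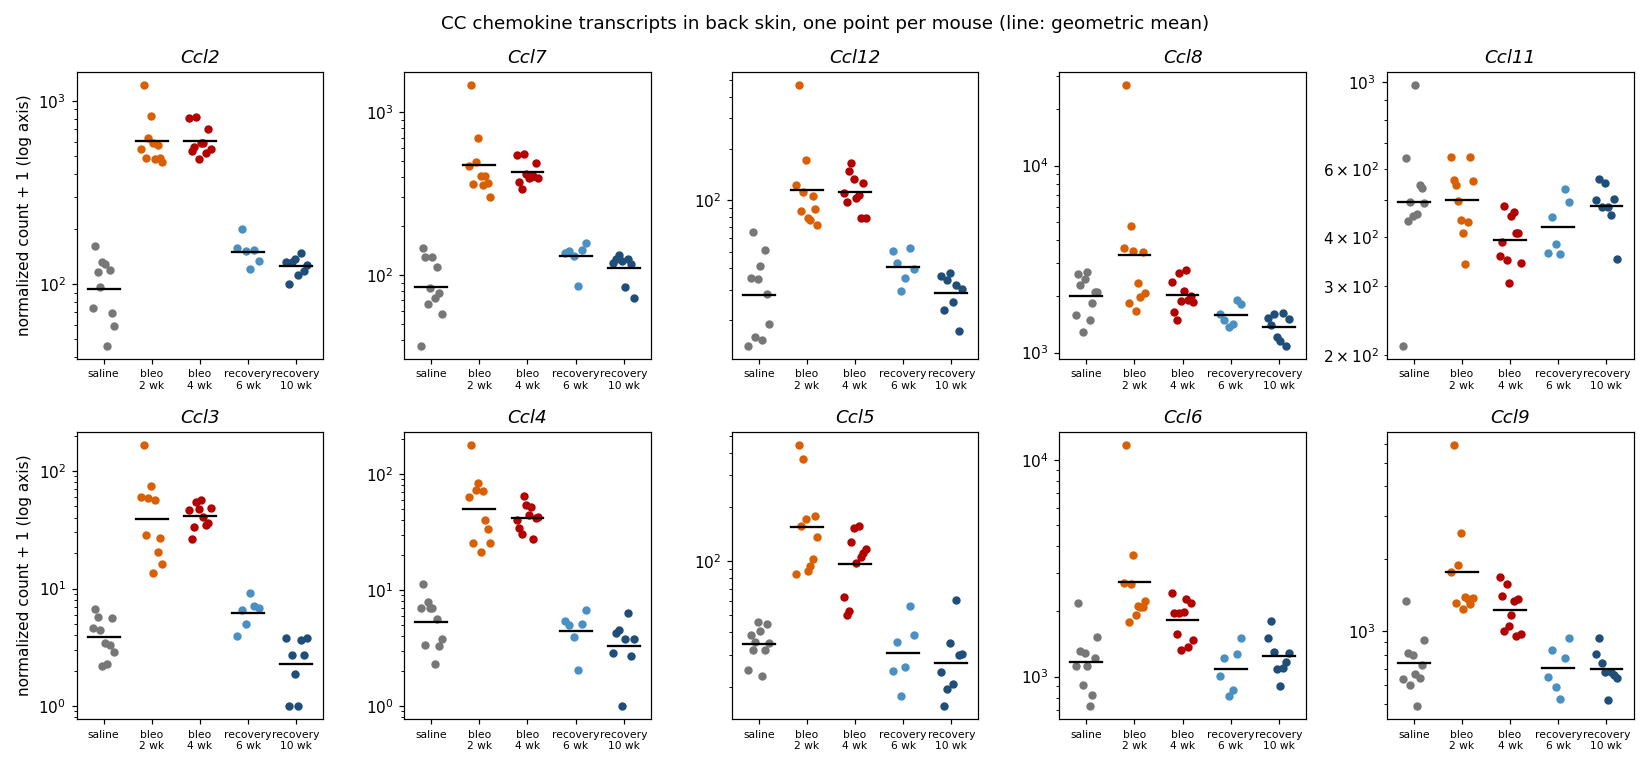
Normalized count of each CC chemokine in each of the 44 mice by group, on a log10 axis of (normalized count + 1), with a bar at the group's geometric mean. For Ccl2, Ccl3, Ccl4, Ccl5, Ccl7 and Ccl12 all points of both bleomycin groups sit above all saline points, and the same mouse at 2 weeks is the highest of its group for all members but Ccl11, by the widest gap for Ccl8.

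Ccl6 and Ccl9, adjacent genes for Ccr1 ligands of myeloid cells, were abundant in all groups and rose modestly. Ccl6 ran from 730.3 to 2181 (median 1169) in saline, from 1780 to 11684 (median 2175) at 2 weeks and from 1321 to 2421 (median 1964) at 4 weeks. Saline mouse 2, the highest of its group, was the 1 saline mouse to reach the 2-week range, and 2 saline mice reached the 4-week range. The log2 fold change of Ccl6 was 1.22 ± 0.21 (SE) at 2 weeks (adjusted p 1.21e-05, limma) and 0.63 ± 0.21 at 4 weeks (adjusted p 0.0168), the latter just past the fold threshold. The 4-week call was lost without saline mouse 7 or without saline mouse 8, where the log2 fold change was no lower than 0.56.

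Ccl9 ran from 489.5 to 1338 (median 697.8) in saline, from 1232 to 5923 (median 1385) at 2 weeks and from 960.6 to 1679 (median 1252) at 4 weeks. At both times the 1 saline mouse to reach the treated range was again mouse 2. Its log2 fold change was 1.25 ± 0.19 at 2 weeks and 0.74 ± 0.19 at 4 weeks (adjusted p 7.17e-07 and 0.00165, limma), and both calls held whichever single mouse was left out.

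Ccl8, a Ccr8 ligand, was the most abundant member per kilobase in every group, and its call at 2 weeks rested on 1 mouse. Its normalized count was 1296 to 2689 (median 2109) in saline and 1668 to 27011 (median 2913) at 2 weeks, where the second highest mouse had 4736. It was 1499 to 2758 (median 1952) at 4 weeks. At 2 weeks 5 mice lay above all saline mice and 5 within the saline range, and at 4 weeks 1 lay above. The log2 fold change of Ccl8 at 2 weeks was 0.74 ± 0.26 (SE, adjusted p 0.0242, limma), and without mouse 2 of that group it was 0.40 (adjusted p 0.0354), below the fold threshold. With 42 mice, without that mouse and saline mouse 1, it was 0.37 (adjusted p 0.0658), and in a fit of these 2 groups alone the adjusted p was 0.127. On the whole reads, with that mouse included, edgeR gave 1.36 and DESeq2 1.35 (adjusted p 7.04e-04 and 1.78e-04). At 4 weeks the log2 fold change was 0.03 (95% confidence interval -0.50 to 0.56).

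Ccl11, the eosinophil attractant, was the only member not called higher at either bleomycin time in the fit of all mice. Its normalized count was 209.8 to 984.3 (median 491.3) in saline, 340.5 to 641.8 (median 518.3) at 2 weeks and 304.3 to 481.9 (median 399.2) at 4 weeks. The treated mice lay inside the range of the saline mice, but the low end of that range was saline mouse 1, with the next lowest at 439.5. The log2 fold change was 0.01 (95% confidence interval -0.28 to 0.31) at 2 weeks and -0.33 (-0.62 to -0.03) at 4 weeks, with adjusted p of 0.953 and 0.0740 (limma). The lower bound at 4 weeks is past the fold threshold and the upper bound is not. Without saline mouse 1 the 4-week log2 fold change was -0.47. Under the 11 other settings its adjusted p ran from 0.0021 to 0.142 (limma, edgeR or DESeq2). It was called in none of them, nor with any 1 mouse left out.

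Mouse 2 at 2 weeks carried the highest count of its group for 9 of the 10 members, all but Ccl11. For Ccl3 the next highest mouse had 73.6, for Ccl4 83.2 and for Ccl2 823.5. It also had the highest summed neutrophil marker count of its group (3652, with 107 to 2111 in the others), the highest T and NK cell sum (1239, with 352 to 1200 in the others) and the lowest fibroblast sum (37580, with 51848 to 117519 in the others). The part of these differences in its chemokine counts was not tested. Without this mouse and saline mouse 1, 8 of 10 members were called higher at 2 weeks and 8 at 4 weeks, when 8.55% and 9.63% of all genes were, and the median log2 fold change of the members at 2 weeks went from 2.10 to 1.82.

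The levels at 2 weeks and 4 weeks were then set against each other directly. With limma 0 of the 10 members were called, when 1.49% of all genes were called higher at 4 weeks and 0.863% lower. At an unadjusted p of 0.05, 5 members were lower. The share of all genes at that looser threshold is not given here, so the shares above are no background for it. The log2 fold changes of 4 weeks over 2 weeks ran from -0.71 for Ccl8 to 0.07 for Ccl3, and the next lowest were -0.68 for Ccl5, -0.58 for Ccl6 and -0.51 for Ccl9. Their adjusted p lay between 0.0963 and 0.122. On the recovered whole reads edgeR called 3 members lower at 4 weeks, Ccl8 (-1.33), Ccl6 (-0.83) and Ccl9 (-0.68), and DESeq2 called these and Ccl5 (-0.82), when 1.23% and 1.46% of all genes were called lower by these tools. With 42 mice in limma the differences of Ccl8, Ccl6 and Ccl9 were -0.37, -0.35 and -0.32, and none was called. For the monocyte attractants Ccl2 and Ccl12 the difference was 0.01 (95% confidence interval -0.33 to 0.35) and -0.04 (-0.56 to 0.49).

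After bleomycin was stopped the levels fell back. Against 4 weeks of bleomycin, 8 of the 10 members were lower after 6 weeks of recovery, when 7.14% of all genes were called lower, and 7 were lower after 10 weeks, against 9.1%. The members not called at 6 weeks were Ccl8 and Ccl11, with log2 fold changes of -0.36 and 0.12, and at 10 weeks also Ccl6 (-0.55, adjusted p 0.0585, limma). Ccl6 lay near the threshold in both: its 6-week call was lost without recovery mouse 3 or 4 (-0.65 and -0.67), and at 10 weeks it was called with quantile normalization (-0.60) and without 4-week mouse 5, 4-week mouse 8 or recovery mouse 2. The median over the members was -1.55 after 6 weeks and -1.89 after 10 weeks. In 6 members, Ccl2, Ccl3, Ccl4, Ccl7, Ccl9 and Ccl12, every recovered mouse lay below every mouse given bleomycin for 4 weeks, at both times. That arrangement was found in 5.77% of all genes at 6 weeks and in 5.25% at 10 weeks. These comparisons share the 4-week mice.

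The fall was steepest for Ccl4 and Ccl3. Ccl4 was at 1.03 to 5.77 (median 4.05) after 6 weeks of recovery and at 0 to 5.32 (median 2.79) after 10 weeks, a log2 fold change from 4 weeks of bleomycin of -3.24 ± 0.37 (SE) and -3.68 ± 0.34 (adjusted p 3.87e-09 and 7.17e-12, limma). Ccl3 was at 2.92 to 8.22 (median 5.69) after 6 weeks and at 0 to 2.79 (median 1.72) after 10 weeks, which is 0 to 3 reads per mouse. The log2 fold change of Ccl3 from 4 weeks of bleomycin was -2.73 ± 0.37 and -4.18 ± 0.34 (adjusted p 2.55e-07 and 2.74e-13, limma). Its 6-week and 10-week mice did not overlap each other, an arrangement found in 0.587% of all genes in that direction. The difference between them, -1.45, did not pass in the fit of 44 mice, where 0.0704% of all genes were called lower, and passed with 42 mice (adjusted p 0.0413), where 0.264% were. At counts this low the values rest on few reads.

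Ccl2 was called above saline at 6 weeks of recovery and not at 10 weeks. It ran from 119.3 to 199.6 (median 151.0) after 6 weeks, with 1 mouse above all saline mice, and from 98.8 to 147.1 (median 128.3) after 10 weeks, inside the saline range. It was the 1 member called above saline in recovery, with a log2 fold change of 0.69 ± 0.19 (SE) at 6 weeks (adjusted p 0.0199, limma) and 0.42 ± 0.18 at 10 weeks (adjusted p 0.174). The 6-week call was lost without saline mouse 7, without recovery mouse 2 or without recovery mouse 5, in a fit of these 2 groups alone, and with the replicate number as a block. Ccl7 was at 84.3 to 156.9 (median 138.4) after 6 weeks, with a log2 fold change from saline of 0.63 (95% confidence interval 0.15 to 1.116, adjusted p 0.0856, limma). It was called in the fits without saline mouse 2, without 2-week bleomycin mouse 2 or without recovery mouse 4, which raised the number of members called from 1 to 2. Ccl12 at 6 weeks had a log2 fold change of 0.54 (-0.07 to 1.14). For the 3 Ccr2 ligands, then, the 6-week estimates were positive and only that of Ccl2 passed.

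For the other members the recovered mice lay near saline. Ccl5 ran from 16.8 to 55.4 after 6 weeks and from 14.6 to 59.4 after 10 weeks, around the saline range. Ccl6 ran from 814.2 to 1503 and from 898.9 to 1806, and Ccl9 from 521.2 to 938.3 and from 516.6 to 942.1. All recovered mice were inside the saline range for both of these genes. Ccl8 was at 1371 to 1919 after 6 weeks and at 1087 to 1636 after 10 weeks, where its median of 1453 was the lowest of the 5 groups and 3 of 8 mice lay below all saline mice. Its log2 fold change from saline at 10 weeks was -0.54 (95% confidence interval -1.10 to 0.03, adjusted p 0.294, limma). Ccl11 was at 361.9 to 531.0 and at 350.3 to 563.0, inside the saline range, whose low end was saline mouse 1 (209.8, next lowest 439.5). Between the 2 recovery times 0 members were called by limma, edgeR or DESeq2, and 1, Ccl3, was lower at an unadjusted p of 0.05.

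The order of the 5 group means, on the log2 scale, was split in the same place for most members. For Ccl2, Ccl3, Ccl4, Ccl5, Ccl7, Ccl9 and Ccl12 the 2 bleomycin groups came first, and the lower of them differed from the next group. Between the 2 bleomycin groups no member passed in limma, with gaps of 0.68 ± 0.27 (SE) for Ccl5 and 0.51 ± 0.19 for Ccl9, which DESeq2 called for both and edgeR for Ccl9. Saline and the 2 recovery groups followed, with no difference between neighbours that passed. For Ccl6, Ccl8 and Ccl11 no neighbouring pair in the order passed the test.

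Summed per kilobase of transcript, the 10 members came to 5738 ± 1367 (SD, n = 10) normalized counts per kb in saline and 7386 ± 1212 at 4 weeks. The sum at 2 weeks ran from 6424 to 66564. It was 4814 ± 707 (n = 6) after 6 weeks of recovery and 4446 ± 535 (n = 8) after 10 weeks. Ccl8 made up most of this sum in every group, at 70.0% on average in saline, 60.1% at 2 weeks and 54.8% at 4 weeks. Its share per mouse did not overlap between saline (64.4% to 73.6%) and 4 weeks (49.6% to 59.7%). Ccl2 went from 1.52% in saline to 7.32% at 4 weeks and Ccl7 from 1.93% to 7.33%, and Ccl12 from 0.984% to 2.91%. Ccl11 went from 8.49% to 5.08%. Ccl3 and Ccl4, with the largest fold changes, held under 1% of the sum in every group on average. These shares are of transcripts and carry no test.

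**Figure D3:**
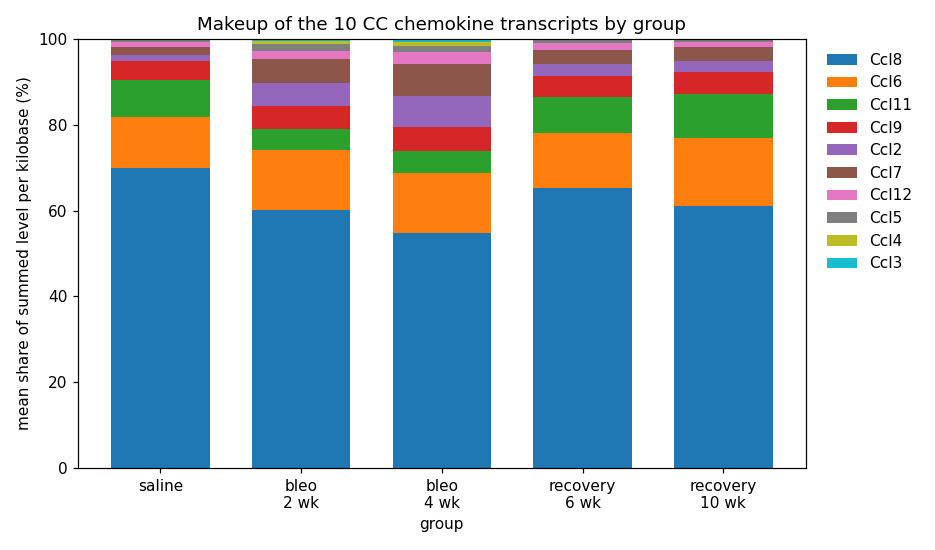
Mean share of each member in the summed level per kilobase of the 10 CC chemokines, in percent, for the 5 groups. Ccl8 takes 70.0% in saline and 54.8% at 4 weeks of bleomycin, where Ccl2 and Ccl7 take 7.32% and 7.33%.

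Within groups, mice with more of one member tended to have more of the others. After group means were taken off, Pearson's r of log2(normalized count + 1) over the 44 mice was positive in 44 of the 45 pairs of members, with a median of 0.55. In 37 pairs the adjusted p was below 0.05 (permutation of mice within groups, 100000 resamples, adjusted over 45 pairs), and in 33 for Spearman's rho. With 42 mice the median was 0.40 and 25 pairs passed (22 for rho), and when, for each pair, the 2 mice with the most extreme values of its first gene were left out, the median r was 0.36. Part of the relation thus rests on the mice left out. All points share the library and its size factor.

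The closest pair was Ccl6 with Ccl9, whose genes are 9246 bases apart, at r = 0.967 and rho = 0.931 (adjusted p 6.43e-05 and 7.5e-05, permutation). Both came from the smallest unadjusted p that the resamples can give. It was 0.942 with 42 mice and 0.930 without the 2 farthest mice. Ccl2 with Ccl7, also neighbours, had r = 0.758 and rho = 0.760 (adjusted p 6.43e-05 and 7.5e-05, permutation), and r = 0.709 with 42 mice. Nearness along the chromosome did not fix the order of the pairs. Ccl6 with Ccl8, from different clusters, had r = 0.832 and rho = 0.695 (r = 0.623 with 42 mice), while Ccl3 with Ccl4, 13229 bases apart, had r = 0.538 and rho = 0.480 (r = 0.417 with 42 mice). Ccl11 stood out: of its 9 pairs 1 passed, with Ccl7 at r = 0.456 and rho = 0.301 (adjusted p 0.0150 and 0.0725, permutation), and 0 passed with 42 mice. Its median r was 0.20, and the medians of the other members ran from 0.41 for Ccl5 to 0.66 for Ccl7.

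**Figure D4:**
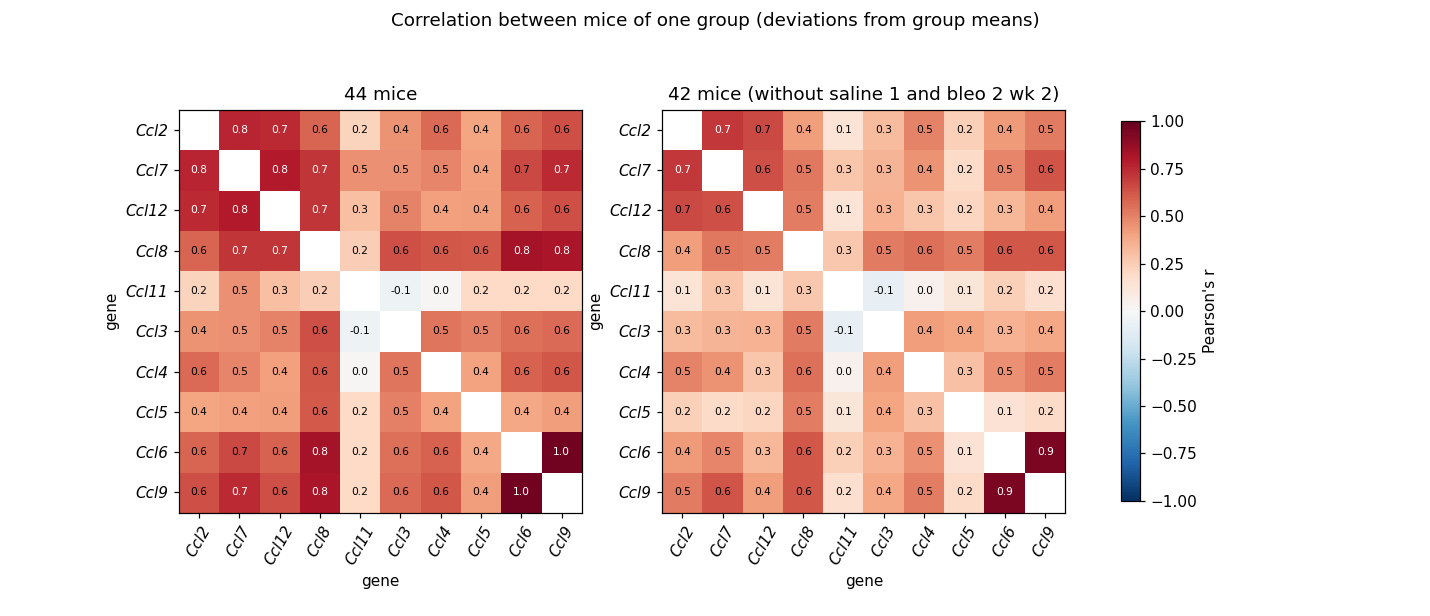
Pearson correlation between each pair of CC chemokines over mice after group means were taken off, with all 44 mice and with 42. Ccl6 and Ccl9 form the strongest pair (0.967 and 0.942), and the row of Ccl11 is near 0 to 0.46.

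The genes outside the family with the most similar pattern over all 44 mice were sought for each member, as the 2 with the highest Pearson r on the log2 scale. These r values include the differences between groups. Ccl2 was matched by Bcl2a1b (r = 0.960), a survival gene of leukocytes with near-identical copies whose reads may be split, and by Clec4n (0.954), a lectin of myeloid cells. Ccl7 was matched by Lair1 (0.963) and Lgals9 (0.960), and Ccl12 by Timp1 (0.918), an inhibitor of matrix metalloproteinases, and Vmp1 (0.918). Ctss, a lysosomal protease of antigen-presenting cells, was among the 2 closest to both Ccl3 (0.943) and Ccl4 (0.942), next to Cd300c2 (0.941) and Slfn1 (0.946). Ccl5 was matched by Epsti1 (0.946), an interferon-induced gene, and Susd3 (0.935).

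Ccl6 was matched by Gmfg (0.896) and Ms4a8a (0.896), and Ccl9 by Sdcbp (0.946) and Ly6a (0.927). Ccl8 was matched by the actin-nucleating subunits Arpc5 (0.906) and Arpc2 (0.905), and those values were 0.853 and 0.814 with 42 mice. Ccl11 had the weakest matches, Ackr1 (0.722) and Efemp1 (0.668). Ackr1 encodes the atypical receptor by which venules and red cells take up chemokines.

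The receptors for these ligands were examined from a list of 9 CC chemokine receptors. At 2 weeks 4 of the 9 were higher and 0 lower and at 4 weeks again 4 and 0, when 9.3% and 10.5% of all genes were called higher. After 6 weeks and 10 weeks of recovery 0 were higher and 1 lower, when 1.71% and 0.998% of all genes were called lower. The median log2 fold change of the list was 0.09, 0.08, -0.03 and -0.28, and with 42 mice it was -0.11 and -0.07 at the bleomycin times. The 4 that rose were Ccr1, Ccr2, Ccr7 and Ccr9 at both times.

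Ccr1 changed by 2.43 at 2 weeks and 2.13 at 4 weeks on the log2 scale (adjusted p 1.71e-13 and 8.81e-12, limma), and its normalized count ran from 28.6 to 79.9 in saline and from 155.4 to 551.4 over both bleomycin groups, with no overlap.

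Ccr2, on which Ccl2, Ccl7 and Ccl12 act, was at 566.4 to 1378 (median 827.0) in saline, 1845 to 4838 (median 3017) at 2 weeks and 987.4 to 2541 (median 1627) at 4 weeks. The log2 fold change was 1.89 at 2 weeks and 0.93 at 4 weeks (adjusted p 7.2e-13 and 1.2e-05, limma). Ccr2 was called lower at 4 weeks than at 2 weeks, with a log2 fold change of -0.96, a comparison in which Ccl2, Ccl7 and Ccl12 were not called. The difference between receptor and ligands was not tested. Ccr7, the receptor by which dendritic cells and T cells reach lymph nodes, changed by 1.54 and 1.97, and Ccr9 by 0.95 and 0.80. The span of Ccr9 overlaps 6 other genes, Lztfl1 and Slc6a20a on the opposite strand among them. How reads in shared stretches were assigned is not given in the sources used here, so its count may include some of theirs.

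Ccr3, the receptor of Ccl11, did not pass at 2 weeks (0.09) or 4 weeks (-0.56) and was lower than saline in recovery, by a log2 fold change of -1.21 after 6 weeks and -1.65 after 10 weeks (adjusted p 0.015 and 5.4e-04, limma). It ran from 15.5 to 63.0 in saline, from 5.84 to 17.8 after 6 weeks and from 3.54 to 13.9 after 10 weeks. Ccr8, the receptor of mouse Ccl8, was not called at any of the 4 times, with log2 fold changes of -0.52, 0.08, -0.42 and -0.61, but was called lower at 2 weeks with 42 mice (-0.69). Likewise Ccr4, a receptor for Ccl17, was called lower at 4 weeks only with 42 mice (-0.67). Of the 4 atypical receptors that bind CC chemokines without G protein signalling, 1 rose at both bleomycin times, Ccrl2 (0.81 and 0.91), and 0 were called in recovery by limma or edgeR, where 2 and 0 passed an unadjusted p of 0.05 at 6 and 10 weeks. Ackr2, the main scavenger of inflammatory CC chemokines in skin lymphatics, was at -0.23 at both bleomycin times and was not called.

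**Figure D5:**
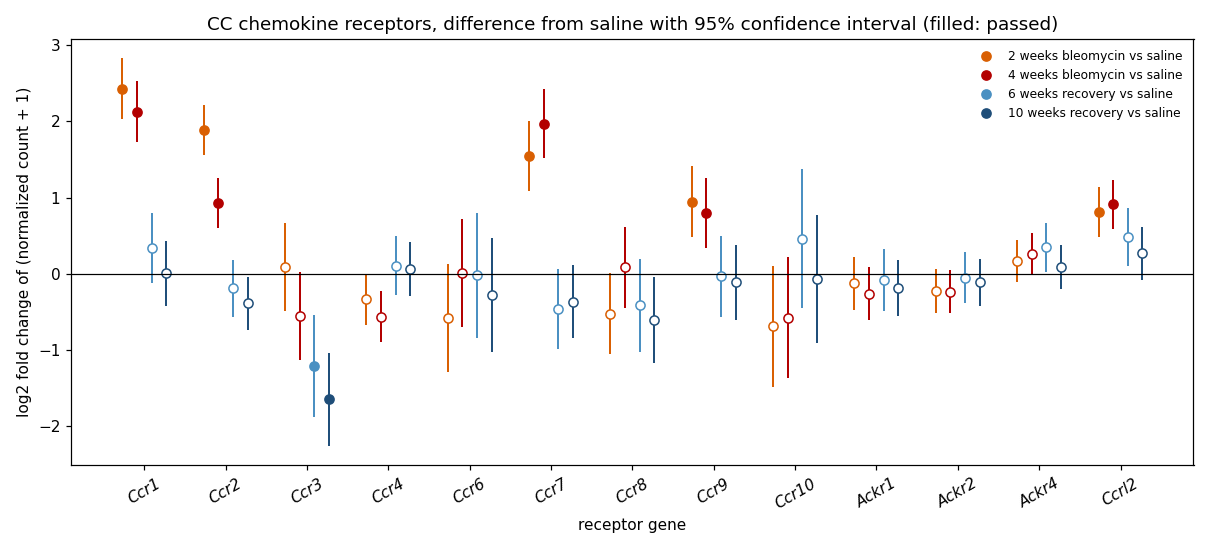
Log2 fold change from saline of the 9 CC chemokine receptors and 4 atypical receptors at the 4 times, with 95% confidence intervals from limma and filled points for called changes. Ccr1, Ccr2, Ccr7, Ccr9 and Ccrl2 are filled above 0 at both bleomycin times, and Ccr3 is filled below 0 in both recovery groups.

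The other listed CC chemokine genes behaved differently from the 10 members. Members and lists were chosen with earlier results of these data known, so this contrast is described only. Of 13 other CC chemokine genes listed, 10 were tested. Ccl21c was not found under that symbol, Ccl21b was listed at 0 in every mouse, and Ccl26 was at 0 in every group but the 10-week recovery, where its mean was 0.117. Of the 10 tested, 0 were called higher and 1 lower at 2 weeks, and 1 higher and 1 lower at 4 weeks, when 7.43% and 7.37% of all genes were called lower, with medians of -0.02 and 0.10. Ccl24, another eotaxin that acts on Ccr3, was the one that fell, by 2.09 at 2 weeks and by 2.59 at 4 weeks on the log2 scale (adjusted p 1.4e-06 and 1.8e-08, limma). It ran from 57.0 to 294.6 (median 98.1) in saline, 9.09 to 166.5 (median 24.4) at 2 weeks, 6.29 to 36.7 (median 17.6) at 4 weeks and 70.0 to 128.1 (median 85.1) after 10 weeks of recovery. All 4-week mice lay below all saline mice.

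Ccl17, a Ccr4 ligand made by dendritic cells, was called higher at 4 weeks (1.58, adjusted p 4.4e-05, limma), at 31.3 to 78.4 against 8.35 to 29.0 in saline, and not at 2 weeks (0.36). In recovery Ccl19, a Ccr7 ligand, was lower at both times (-0.88 and -0.99), and at 6 weeks Ccl21a, another Ccr7 ligand, was higher (0.68), as was Ccl27a (0.61), the keratinocyte chemokine for skin-homing T cells. Ccl21a and Ccl27a have near-identical copies in the mouse genome, and how their reads were assigned is not given in the sources used here. The calls of Ccl21a and Ccl27a were lost with 42 mice (0.57 and 0.56).

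Of 6 listed cytokines known to induce CC chemokines, 5 were tested, and 3 rose at both bleomycin times, when 9.3% and 10.5% of all genes were called higher. In recovery 0 were called by limma or edgeR, or at an unadjusted p of 0.05. Il6 changed by 2.27 and 1.98, Il1b by 1.67 and 1.28, and Tnf by 0.94 and 1.05 on the log2 scale at 2 weeks and 4 weeks. Il6 rested on few reads, with normalized counts of 0 to 5.92 in saline and 3.20 to 25.8 over both bleomycin groups. Il4 and Il13, which induce Ccl11 and Ccl24, were not called at any time, at means of at most 6.61 in every group. Ifng had a mean at or below the filter of 3 over all mice.

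Markers of several leukocyte types were also higher under bleomycin, in unequal numbers. Of all genes tested, 9.3% were called higher at 2 weeks, 10.5% at 4 weeks and 3.33% after 6 weeks of recovery. The shares called lower after 6 weeks and 10 weeks of recovery were 1.71% and 0.998%. Of 6 macrophage and monocyte markers, 5 were higher at 2 weeks and 5 at 4 weeks, and 0 in recovery. Ly6c2, a marker of inflammatory monocytes, changed by 6.12 and 4.40 on the log2 scale, from 20.3 to 62.9 in saline to 1575 to 5774 at 2 weeks and 377.0 to 1291 at 4 weeks. The summed normalized count of the 6 genes was 7124 to 18975 in saline, 20196 to 38993 at 2 weeks, 17116 to 33147 at 4 weeks, 10785 to 16086 after 6 weeks of recovery and 8801 to 13481 after 10 weeks. The sums at 2 weeks lay above all those in saline.

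Of the neutrophil markers tested, 5 of 5 were higher at 2 weeks and 3 of 5 at 4 weeks, with sums of 41 to 159 in saline, 107 to 3652 at 2 weeks and 151 to 895 at 4 weeks. In recovery Retnlg was lower than saline at both times and Cxcr2 at 10 weeks. The 6-week call was made by limma only, as edgeR called 0 of the 5 at that time. By unadjusted p 2 of the 5 were higher and 1 lower at 6 weeks of recovery. Of the T and NK cell markers 5 of 6 were higher at 2 weeks and 2 of 6 at 4 weeks (sums of 178 to 516 in saline, 352 to 1239 and 318 to 746). Of 5 mast cell markers 5 were higher at both times, and 3 after 6 weeks of recovery. Eosinophil markers were low throughout, with sums of 24 to 102 in saline and 38 to 200 at 2 weeks, and 1 of the 3 tested, Prg2, was higher at 2 weeks (1.27, and 0.87 and not called with 42 mice). In recovery 1 of the 3 was lower at 6 weeks, Ccr3, and 2 at 10 weeks, Ccr3 and Siglecf (-1.19), with sums of 22 to 31 and 9 to 39. Ccr3 is thus counted among both the receptors and these markers. The eosinophil markers did not all go one way at 6 weeks of recovery. With 42 mice 1 of the 3 was called higher and 1 lower, and by unadjusted p with all mice 1 was higher and 2 lower. The part of these cells in the chemokine results was not tested.

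Other tissue components also differed. At 2 weeks and 4 weeks, 7.43% and 7.37% of all genes were called lower and 9.3% and 10.5% higher. All 4 tested markers of the growing hair follicle were lower at both bleomycin times, by a median log2 fold change of -9.52 and -7.97, with sums of 1843 to 194268 in saline and 8 to 1544 at 2 weeks. Of the fibroblast markers 3 of 5 were lower at 2 weeks and 1 at 4 weeks, of the fat cell markers 2 of 4 at both times, and of the endothelial markers 2 of 4 were higher at both times. After 6 weeks of recovery 3 of the 4 endothelial markers were higher, when 3.33% of all genes were called higher, and after 10 weeks 0 were. Of the fibroblast markers 1 of 5 was lower at each recovery time, when 1.71% and 0.998% of all genes were called lower. Of the 5 keratinocyte and 5 skeletal muscle markers 0 were called at any time by limma or edgeR with all mice (Myh4 was lower at 4 weeks with 42 mice, at -0.62), and at an unadjusted p of 0.05 at most 1 keratinocyte marker passed at a time. Among the cell type markers found, Epx in saline was the 1 case of a gene at 0 in a whole group. The part of these differences in the chemokine levels was not tested either.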

How the data were processed

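Back skin of 44 mice was sequenced as 50 bp paired-end, stranded mRNA libraries. Per the labels and methods, the authors aligned reads to mm10 with STAR 2.4.0 and normalised counts with DESeq2 1.12.3. How reads were counted (tool, strand setting, annotation) is not given in the sources used here. The deposited signal is a normalized count: reads per gene divided by one size factor per mouse. It was not a raw count table, so limma replaced a count test as the main test. Dividing by the value of 1 read gave whole reads (within 0.01 reads) for 100.0% of the nonzero values of every mouse. That step is clear by itself in 43 of the mice and lies too near 1 in the other. No library matched another within counting noise (smallest chi-square per degree of freedom 5.32). Groups follow the labels, which name no batch, and 0 columns were left out.

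Genes with a mean above 3 (17037) were fitted with limma 3.58.1 in R 4.3.3, with a mean-variance trend on log2(normalized count + 1), all 5 groups in one fit. A gene was called at a log2 fold change beyond 0.585 in size (1.5-fold) with an adjusted p below 0.05 (Benjamini-Hochberg over all genes tested). The whole reads went through the quasi-likelihood test of edgeR 4.0.16 and through DESeq2 1.42.0. All 3 tools were checked on simulated data with 200 changed genes. The floor of detection is 3 reads, and depth limits Ccl3 and Ccl4 most. Correlations within groups used permutation of mice (100000 resamples). Python 3.11.15 with pandas 2.3.3, scipy 1.17.1 and Biopython 1.88 was used. Symbols were matched for 98.9% of identifiers, positions and exonic lengths are from GENCODE (GRCm38), and promoters are from RefSeq (GRCm38.p6).

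Of each gene list at most 6 genes called against saline were named, those of smallest adjusted p, and for each member the 2 genes with the most similar pattern. A few others were named after their values were seen (Ccr4, Ccr8, Ackr2, Il4, Il13, Ly6c2, Myh4). One receptor gene is not reported here. The members and lists were chosen with earlier results of these data known. The alternatives changed the pseudocount (0.1), the filter (none, or 10 normalized counts in 6 mice), the fold threshold (none), the normalization (quantile, TMM), the tool, or the mice (the compared groups alone, 42 mice, all but 1 mouse), or added the replicate number as a block.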

Additional observations from a re-analysis of the deposited data

Results flagged for a closer look

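Of the 50 combinations of a member and a group, 9 held a mouse whose gap to the nearest other mouse was large for the range of its group (Dixon's test at 95%). Chance flags about 1 in 20 groups. In 5 of the 9 the mouse was number 2 given bleomycin for 2 weeks, with normalized counts of 11684 for Ccl6 (next highest 3650), 1475 for Ccl7 (699.1), 27011 for Ccl8 (4736), 5923 for Ccl9 (2556) and 469.5 for Ccl12 (171.2). The 5 genes are correlated, so these are not 5 separate events. The library of this mouse also had the lowest correlation with its group over all genes, and its highest neutrophil marker sum; the part of either was not tested.

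The other 4 were single low values. Saline mouse 1, the second library that stood apart, had 209.8 for Ccl11, with the next lowest at 439.5. Mouse 8 after 10 weeks of recovery had 350.3 for Ccl11 (next 456.4), and mouse 4 of that group had 0 for Ccl4 (next 1.70), where a count of 0 allows up to 3 reads. Mouse 4 after 6 weeks of recovery had 84.3 for Ccl7 (next 130.4), and without it Ccl7 was called above saline at that time.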

How the results depend on the processing

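Of 880 fits of a member in a comparison under another setting, 851 left direction and call as they were, 9 gained a call, 4 lost one and 16 changed the sign of an estimate. Of 3520 with 1 mouse left out, these numbers were 3458, 6, 8 and 48. The cause was not tested in any of them. The number of members called above saline or below it at 6 weeks of recovery, 1 with all mice, was 0 when only these groups were compared and 0 with the replicate number as a block. It ran from 0 to 2 when single mice were left out (0 without saline mouse 7, recovery mouse 2 or recovery mouse 5). Without saline mouse 2, 2-week mouse 2 or recovery mouse 4 it was 2. Leaving out single mice gave 8 to 9 members at 2 weeks and 7 to 8 at 4 weeks. Between 4 weeks and 2 weeks of bleomycin the count was 3 with edgeR and 4 with DESeq2, and 0 with limma. Between the recovery times it was 1 with 42 mice and 0 with 44.

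The mice numbered alike were different animals, and their deviations correlated above 0.1 in 18 of 78 pairs (-0.69 to 0.38), so the numbers do not pair them. With the replicate block no other count of members moved by over 1.5 times, but 2 uncalled estimates changed sign, to 0.076 for Ccl9 between the recovery times and to -0.053 for Ccl12 at 10 weeks of recovery.

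The other sign changes were of uncalled log2 fold changes near 0. For 4 weeks over 2 weeks, edgeR and DESeq2 gave -0.035 and -0.037 for Ccl2 and -0.30 and -0.31 for Ccl3, and 42 mice gave 0.030 for Ccl7 and 0.19 for Ccl12. Over the omissions of 1 mouse these ran from -0.042 to 0.12 for Ccl2, -0.10 to 0.30 for Ccl3, -0.22 to 0.030 for Ccl7 and -0.11 to 0.19 for Ccl12. Against saline, Ccl8 at 4 weeks was -0.0069 with 42 mice (-0.039 to 0.080 over omissions). Ccl11 at 2 weeks was -0.036 with edgeR, -0.0498 with DESeq2 and -0.14 with 42 mice (-0.12 to 0.12). Ccl12 at 10 weeks of recovery was -0.0038 with quantile normalization, -0.13 with edgeR, -0.12 with DESeq2 and -0.083 with 42 mice (-0.083 to 0.16). Omissions alone moved Ccl5 at 6 weeks of recovery from -0.33 to 0.0024, Ccl9 from -0.15 to 0.030 at 6 weeks, from -0.14 to 0.019 at 10 weeks and from -0.097 to 0.073 between them, and Ccl11 at 10 weeks from -0.18 to 0.072. With 42 mice, called other CC chemokines went from 2 higher and 1 lower to 0 and 3 at 6 weeks of recovery, from 1 to 3 lower at 10 weeks and from 1 to 2 lower at 4 weeks, and called fibroblast markers from 1 to 3 lower at 10 weeks of recovery and from 1 to 2 at 4 weeks. Depth limits Ccl3 and Ccl4, which rest on few reads outside the bleomycin groups.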
